A study of Mus musculus with 12 samples.

Results

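Cytokines and chemokines are the secreted signals by which B cells act on other cells, and 10 genes encoding such signals were described here in mouse follicular B cells at rest and after B cell receptor stimulation. They were the chemokine genes Ccl3, Ccl4 and Ccl22, the tumour necrosis factor (TNF) family genes Tnf, Lta and Ltb, and the cytokine genes Il6, Il10, Il12a and Tgfb1. The members were taken by symbol as a fixed list, and all 10 were found among the 24046 lines of each count file. Of these, 8 passed the filter on low counts and were among the 12242 genes tested, while Il6 and Il10 did not pass and are given by their counts.

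Messenger RNA was sequenced from sorted splenic follicular B cells of mice labelled Jmjd1c WT or Jmjd1c KO. JMJD1C is a JmjC domain protein related to histone lysine demethylases, and the series title links it to autoimmunity and to the antibodies of heparin-induced thrombocytopenia (HIT). Cells of 6 animals, 3 of each genotype, gave 1 library each before (0 h) and after anti-IgM for 2 h, an antibody against the surface IgM receptor, so the 4 groups (WT 0 h, KO 0 h, WT 2 h and KO 2 h) held 3 libraries each. The replicate number is labelled as a batch and is shared between genotypes and times. The labels give neither the deleted part of Jmjd1c, nor the cells in which it was deleted, nor the age of the animals. No library at 2 h without anti-IgM was analysed here, so receptor stimulation and time in culture cannot be told apart in any change from 0 h to 2 h.

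By way of background, CCL3 and CCL4 are closely related CC chemokines that attract T cells and monocytes, and CCL22 attracts CCR4-bearing T cells. Lymphotoxin alpha and beta form a membrane heterotrimer that signals through the lymphotoxin beta receptor on stromal cells, and B cells are a known source of the lymphotoxin that keeps follicular dendritic cell networks in place. TNF and lymphotoxin alpha homotrimers bind the TNF receptors. Interleukin 6, interleukin 10 and TGF-beta 1 are the cytokines usually discussed for effector and regulatory B cells, and Il12a encodes the p35 chain shared by interleukins 12 and 35.

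The genes fell into 2 clusters and several single loci, and positions are from GENCODE M21 on GRCm38, the assembly behind mm10. Ltb (chromosome 17, 35194439 to 35196320, plus strand), Tnf (35199381 to 35202007, minus strand) and Lta (35203165 to 35205351, minus strand) lay in that order, 3.06 kb and 1.16 kb apart. Ccl3 (chromosome 11, 83647844 to 83649355, minus strand) and Ccl4 (83662584 to 83664683, plus strand) lay 13.23 kb apart. Ccl22 is on chromosome 8 (94745590 to 94751699), Il12a on chromosome 3 (68690644 to 68698547), Tgfb1 on chromosome 7 (25687002 to 25705077), Il10 on chromosome 1 (131019845 to 131024974) and Il6 on chromosome 5 (30013114 to 30019981). RefSeq extends a predicted Ccl4 transcript across Ccl3 on the other strand, and no source used here gives the strand setting of the counting, so reads over such an overlap could not be assigned to 1 gene with certainty.

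Promoter sequence is shown for Ccl3, which rose, and for Ltb and Tnf, neighbours that moved in opposite directions. The sequences are from RefSeq on GRCm38.p6, run 5′ to 3′ on the gene's own strand. For Ltb and Tnf they end just before the first transcript start in GENCODE, and for Ccl3 just before the RefSeq start, which lies upstream of the GENCODE start. They cover chr11:83649379-83649628 for Ccl3, chr17:35194257-35194438 for Ltb and chr17:35202008-35202257 for Tnf. Capitals mark a match to the kB consensus, the site bound by NF-kB dimers.
Ccl3: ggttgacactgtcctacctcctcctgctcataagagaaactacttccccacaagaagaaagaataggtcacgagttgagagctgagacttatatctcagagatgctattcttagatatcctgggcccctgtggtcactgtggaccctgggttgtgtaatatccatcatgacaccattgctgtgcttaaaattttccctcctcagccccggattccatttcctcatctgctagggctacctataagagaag
Ltb: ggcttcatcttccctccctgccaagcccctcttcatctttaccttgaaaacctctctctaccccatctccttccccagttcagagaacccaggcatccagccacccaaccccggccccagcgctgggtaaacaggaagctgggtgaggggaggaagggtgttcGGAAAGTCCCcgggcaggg
Tnf: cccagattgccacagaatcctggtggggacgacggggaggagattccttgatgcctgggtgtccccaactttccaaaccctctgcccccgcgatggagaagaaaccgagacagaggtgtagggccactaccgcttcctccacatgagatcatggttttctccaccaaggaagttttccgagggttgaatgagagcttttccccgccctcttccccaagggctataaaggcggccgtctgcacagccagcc

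In the RefSeq windows of 250 bases before to 50 bases after each start, which held 8 of the 10 members (Ccl4 and Il10 had no entry), both strands were searched for 4 motifs. The kB consensus was found in 3 of 8 members, against 8.46% of all 32851 windows. In Ltb the match was GGAAAGTCCC, starting at position -87 from the RefSeq start, in Il6 it was GGGATTTTCC at -44 and in Tgfb1 GGGACCCCCC at -140. The NFAT core GGAAA was found in 6 of 8 members (Ccl3, Il12a, Il6, Lta, Ltb and Tnf), against 61.3% of all windows, and overlapped the kB match in Ltb and in Il6. The AP-1 motif TGANTCA was found in Il6 alone, against 7.81% of windows, and the EGR motif GCGNGGGCG in Tgfb1 alone, against 5.55%. A match describes letters in this window and says nothing of binding.

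Libraries held between 5666013 and 14153396 counts, and a single count was worth 0.0610 to 0.338 CPM, the count scaled by library size and by TMM, which corrects for library composition. Jmjd1c itself was at 288 to 360 CPM in WT 0 h and 196 to 236 CPM in KO 0 h, and at 269 to 322 CPM in WT 2 h and 199 to 213 CPM in KO 2 h. The groups did not overlap at either time, although the differences were not called by edgeR (log2 difference -0.56 ± 0.13 SE, adjusted p = 0.9999, at 0 h, and -0.52 ± 0.13, adjusted p = 0.887, at 2 h). The ribosomal RNA row Rn45s took 12.9% to 52.3% of counts in 6 libraries (both 2 h libraries of batch 1 and all 4 of batch 2) and 0.418% to 1.09% in the other 6, with the highest share in KO 2 h replicate 1. The same 6 libraries held 49.9 to 444 CPM of Mpo, a granule enzyme of myeloid cells, and 67.2 to 529 CPM of the division marker Mki67, against at most 3.17 and 14.5 CPM in the other 6.

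The labelled cell type was checked against its markers. All 7 B cell markers were present in every library and summed to 4295 to 5402 CPM in WT 0 h, 4816 to 5533 in KO 0 h, 2513 to 3647 in WT 2 h and 2550 to 4042 in KO 2 h. The follicular marker Fcer2a, which encodes CD23, was between 224 and 654 CPM. For T cells, 9 of 9 markers in the files were above 0 in every library, with the list summing to 117 to 176 CPM in WT 0 h, 95.2 to 128 in KO 0 h, 167 to 254 in WT 2 h and 134 to 244 in KO 2 h. Within this list Lck (37.9 to 61.2 CPM at 0 h, 90.6 to 159 at 2 h) and Cd5 (5.22 to 10.5 and 11.5 to 26.7) were higher at 2 h in every animal. Each other T cell marker was lower at 2 h in at least 1 animal. Cd3e, which defines T cells, was at 6.19 to 12.3 CPM in WT 0 h, 6.36 to 8.03 in KO 0 h, 4.39 to 10.7 in WT 2 h and 3.04 to 4.10 in KO 2 h. Markers of monocytes and macrophages summed to 19.9 to 46.8, 25.4 to 44.2, 23.4 to 41.4 and 29.3 to 55.8 CPM in the same order of groups. Cd14, Fcgr1, Ms4a7 and Vcam1, 4 of those 8 markers, had no count in at least 1 library. The other 4 had counts in every library: Lyz2 at 4.39 to 21.7 CPM, Cd68 at 8.78 to 15.7, Itgam at 2.38 to 12.5 and Csf1r at 0.952 to 11.8. Dendritic cell markers summed to 8.73 to 14.6, 13.0 to 15.0, 19.0 to 39.9 and 20.4 to 28.3 CPM, and Xcr1, Clec9a and Cd209a, 3 of 7, stayed under 1 CPM in every library. NK cell markers (6 of 6 in the files) summed to 10.9 to 20.6, 10.4 to 16.5, 8.38 to 20.5 and 10.1 to 15.8 CPM, and neutrophil markers (5 of 6) to 12.5 to 85.5, 31.0 to 62.2, 18.8 to 139 and 22.1 to 537 CPM. The dendritic cell markers moved both ways: Zbtb46 was higher at 2 h in 5 of 6 animals (3.13 to 6.21 CPM at 0 h, 5.07 to 26.5 at 2 h) and Flt3 in 6 of 6 (3.25 to 6.79 and 6.28 to 20.0), while Itgax, which encodes CD11c, was lower in 6 of 6 (1.24 to 3.72 and 0.338 to 2.82). These are mixed RNA samples, in which fewer cells of a type and less RNA per cell cannot be told apart, and the part of these other cells in the results was not tested.

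At rest the members spanned over 3 orders of magnitude per length, with Ltb and Tgfb1 high and Il6 and Il10 near the limit of detection. Levels were compared between genes as CPM per kb of exon (GENCODE M21, all exons of a gene joined), because longer transcripts give more reads. In WT 0 h Ltb was at 194 ± 13.0 CPM per kb (SD, n = 3) and Tgfb1 at 80.0 ± 20.3, higher than 99.0% and 96.9% of tested genes with a length. Il12a (10.9 ± 2.07), Lta (7.99 ± 2.78) and Ccl4 (6.22 ± 3.30) followed. The ranges of Il12a and Lta, of Lta and Ccl4, and of Ccl4 and Tnf (3.99 ± 0.978) overlapped, so these neighbours in the order were not separated. Ccl3 (2.33 ± 0.240) lay below every Tnf library and above every Ccl22 library (0.401 ± 0.421). Il10 (0.123 ± 0.140) and Il6 (0.0526 ± 0.0215) came last, and the ranges of Ccl22 and Il10 and of Il10 and Il6 overlapped, so the 3 lowest places were not separated. KO 0 h kept the 2 highest and the 3 lowest places, with Ltb at 199 ± 29.6 and Tgfb1 at 76.8 ± 15.6 CPM per kb, while Ccl4 (9.60 ± 3.05) stood above Lta (8.17 ± 2.02) with overlapping ranges.

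**Figure D1:**
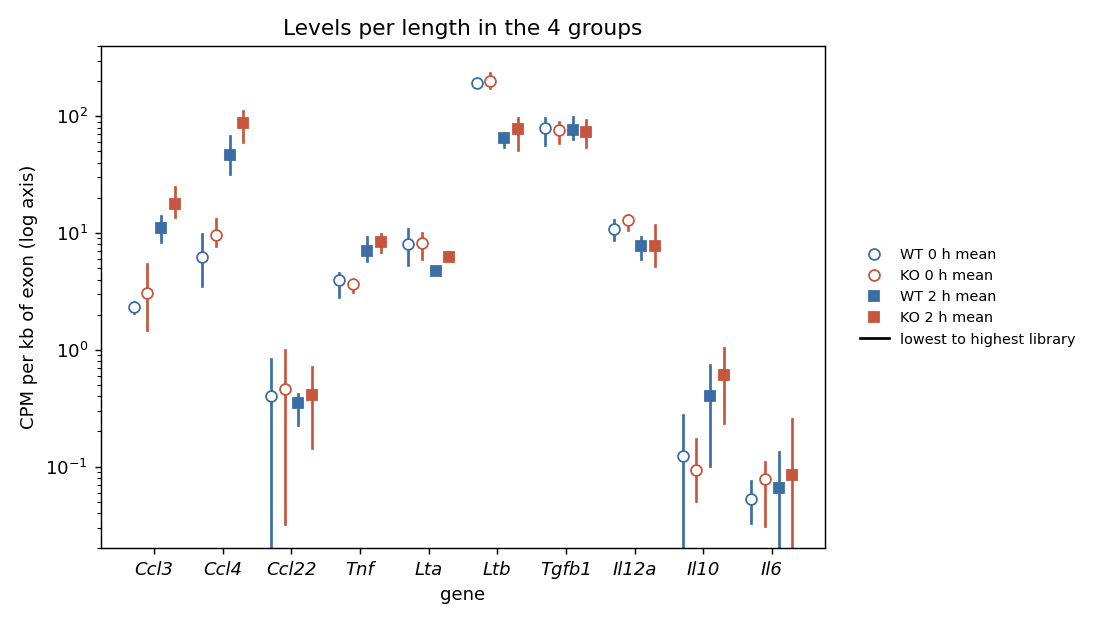
Levels of the 10 genes as CPM per kb of exon on a log axis, as the mean (circles at 0 h, squares at 2 h) and the range of 3 libraries (lines) in WT (blue) and KO (red). A line that runs to the bottom edge includes a library with no count. Ltb is highest at 0 h, and by 2 h Ccl4 overlaps Ltb and Tgfb1 in both genotypes.

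After 2 h of anti-IgM the order had changed. Ccl4 reached 46.4 ± 18.4 CPM per kb in WT and 86.8 ± 25.2 in KO, where it overlapped the ranges of Ltb (65.2 ± 9.29 in WT and 78.5 ± 24.2 in KO). Ccl3, at 10.9 ± 2.82 in WT and 17.6 ± 6.07 in KO, moved above Lta, Tnf and Il12a by its mean.

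Ccl4 and Ccl3 had the largest rises among the tested members. Of the 8 members tested, 3 (Ccl3, Ccl4 and Tnf) were called higher and 1 (Ltb) lower at 2 h in each genotype, where called means an adjusted p under 0.05 in edgeR. Over all genes tested 10.7% were called higher and 9.06% lower in WT, and 14.1% higher and 13.0% lower in KO. Gaps between the times and directions shared by all animals were not counted over all genes. Where given below, they describe the libraries of that member only.

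Ccl4 was at 2.30, 3.50 and 6.52 CPM in WT 0 h replicates 1 to 3 and at 21.3, 44.3 and 26.2 CPM in WT 2 h. In KO it went from 5.15, 5.20 and 8.66 CPM to 58.5, 73.3 and 40.0 CPM. Every 2 h library lay above every 0 h library, and the rise was seen in 6 of 6 animals. The mean rose from 4.11 ± 2.18 to 30.6 ± 12.1 CPM in WT (SD, n = 3), a log2 difference of 2.86 ± 0.41 (SE, adjusted p = 8.72e-04), and from 6.34 ± 2.01 to 57.3 ± 16.7 CPM in KO, 3.16 ± 0.41 (adjusted p = 3.37e-04). Within animals, the log2 change was 3.11, 3.59 and 1.98 in WT replicates 1 to 3 and 3.46, 3.77 and 2.18 in KO, smallest in batch 3 for both genotypes. Batch 3 had the highest 0 h levels of Ccl4 in both genotypes and had at most 0.624% Rn45s in all 4 libraries.

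Ccl3 was lower throughout, at 1.59, 1.81 and 1.95 CPM in WT 0 h and 6.39, 10.7 and 8.08 CPM in WT 2 h. In KO it went from 1.14, 1.81 and 4.13 CPM to 11.2, 18.8 and 10.5 CPM. Groups did not overlap between the times in either genotype, although KO 0 h replicate 3 stood above the other 0 h libraries. The log2 difference was 2.22 ± 0.44 in WT (SE, adjusted p = 0.00499) and 2.50 ± 0.44 in KO (adjusted p = 0.00186). Without KO 0 h replicate 3 the KO value was 3.20. The 0 h libraries rested on 15 to 62 counts each.

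No change of Ccl22, the lowest chemokine gene, was detectable. Its counts were 0, 7 and 32 in WT 0 h replicates 1 to 3, 1, 7 and 35 in KO 0 h, 4, 6 and 12 in WT 2 h and 1, 7 and 27 in KO 2 h. The count of 0 allows up to 0.238 CPM, for counting error only. Batch 3 had the highest count in every group and batch 1 the lowest. Scaled for depth, batch 1 was still lowest in every group. Batch 3 was highest in all but WT 2 h, where replicates 2 and 3 were at 0.970 and 0.941 CPM. The log2 difference was -0.21 ± 1.14 in WT and -0.04 ± 1.14 in KO (SE, adjusted p = 0.924 and 0.983, edgeR). With these standard errors, a change of 2-fold or somewhat more in either direction could have gone undetected. The parts of low counts and of the spread between replicates in the standard errors were not tested. It was higher at 2 h in 4 of 6 animals, and the sign turned with the setting, between -0.79 and 1.06 in WT and between -0.71 and 1.34 in KO, with no call. With the batch as a replicate block it was 0.34 in WT and 0.02 in KO, and the highest values came without WT 0 h replicate 3 and without KO 0 h replicate 3.

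The neighbouring TNF family genes moved apart, Tnf rising and Ltb falling. Tnf, encoding the inflammatory cytokine itself, was at 4.68, 7.47 and 7.44 CPM in WT 0 h and 9.98, 15.0 and 9.49 CPM in WT 2 h. In KO it went from 5.15, 6.45 and 6.46 CPM to 13.9, 16.1 and 11.3 CPM. The times did not overlap in either genotype, and 6 of 6 animals rose. The log2 difference was 0.81 ± 0.26 in WT (SE, adjusted p = 0.0471) and 1.19 ± 0.26 in KO (adjusted p = 0.00665). The WT call lay close to the threshold and was lost in 11 of 23 alternative settings. Dropping replicate 1, 2 or 3 of WT 0 h gave adjusted p = 0.169, 0.0689 and 0.0783, and dropping the same replicates of WT 2 h gave 0.0563, 0.214 and 0.0592. Dropping replicate 1, 2 or 3 of KO 0 h, which share the estimate of spread, gave 0.05995, 0.0620 and 0.0624. The KO call of Tnf held in all 23 settings.

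Ltb, which encodes the membrane-anchoring chain of lymphotoxin, fell until its range per length overlapped that of Tgfb1. It was at 298, 273 and 311 CPM in WT 0 h and 104, 82.9 and 109.6 CPM in WT 2 h. In KO it went from 287, 267 and 352 CPM to 134, 77.4 and 146 CPM. All 2 h libraries lay below all 0 h libraries. The mean fell from 294 ± 19.8 to 98.9 ± 14.1 CPM in WT, a log2 difference of -1.57 ± 0.22 (SE, adjusted p = 7.15e-04), and from 302 ± 44.8 to 119 ± 36.6 CPM in KO, -1.34 ± 0.22 (adjusted p = 0.00117). Changes within animals were between -1.78 and -1.10, and in batch 3 they were -1.51 in WT and -1.27 in KO.

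Lta, the secreted lymphotoxin chain that pairs with the Ltb product, was at 15.0, 10.8 and 7.32 CPM in WT 0 h and 6.39, 6.63 and 6.43 CPM in WT 2 h. In KO it was at 13.8, 11.9 and 8.26 CPM at 0 h and 9.47, 8.33 and 8.23 CPM at 2 h. The WT times did not overlap, the KO times did, and all 6 animals were lower at 2 h, with log2 changes between -1.21 (WT replicate 1) and -0.0060 (KO replicate 3). Neither difference was called, at -0.77 ± 0.27 in WT (SE, adjusted p = 0.0681) and -0.39 ± 0.27 in KO (adjusted p = 0.298). With the batch as a replicate block, which the shared number allows, the WT difference was called (-0.71, adjusted p = 0.0406), as it was without WT 0 h replicate 3 (-0.997, adjusted p = 0.0282). It was not called with 1 term per animal (-0.70, adjusted p = 0.0935), without WT 0 h replicate 1 (-0.48, adjusted p = 0.289), or with the batch block once both 2 h libraries of batch 1 were left out (-0.51, adjusted p = 0.0661).

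**Figure D2:**
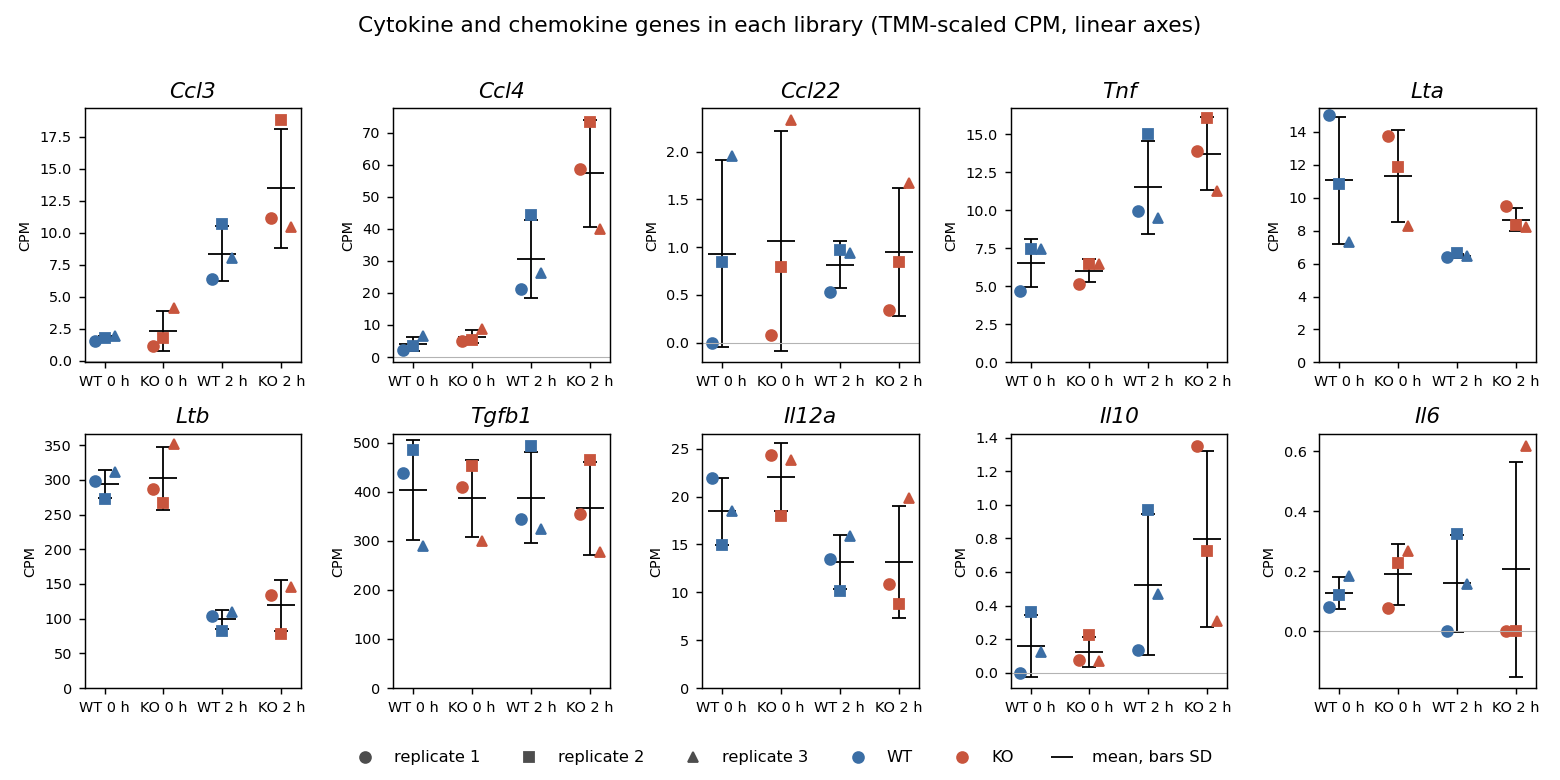
TMM-scaled CPM of each gene in each of the 12 libraries, on linear axes that differ between panels; symbols mark the replicate (batch), colours the genotype, and black bars the mean and SD of 3 libraries. Ccl3, Ccl4 and Tnf sit higher at 2 h in both genotypes, Ltb sits lower, and Ccl22, Il10 and Il6 stay at or under 2.33 CPM.

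Among the interleukin and TGF-beta genes no change was called. Il12a was at 22.0, 14.9 and 18.5 CPM in WT 0 h and 13.4, 10.2 and 15.8 CPM in WT 2 h. In KO it was at 24.4, 18.0 and 23.9 CPM at 0 h and 10.8, 8.81 and 19.9 CPM at 2 h. It was lower at 2 h in 6 of 6 animals, least in batch 3, but the ranges overlapped. The log2 difference was -0.48 ± 0.29 in WT (SE, adjusted p = 0.285) and -0.72 ± 0.29 in KO (adjusted p = 0.0875). With the batch as a replicate block the KO difference was called (-0.75, adjusted p = 0.0165), and likewise with 1 term per animal (-0.79, adjusted p = 0.0285) and without KO 2 h replicate 3 (-1.19, adjusted p = 0.00689). Without KO 2 h replicate 2 it was -0.48 (adjusted p = 0.234).

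Tgfb1, encoding a growth factor secreted in latent form, was at 438, 484 and 288 CPM in WT 0 h and 345, 494 and 324 CPM in WT 2 h. In KO it was at 409, 452 and 300.0 CPM at 0 h and 355, 466 and 277 CPM at 2 h. The libraries differed more between batches than between times, with batch 2 highest and batch 3 lowest in each group, and 3 of 6 animals were higher at 2 h. The log2 difference was -0.06 ± 0.26 in WT and -0.08 ± 0.26 in KO (adjusted p = 0.909 and 0.843).

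Il10 and Il6 were close to the floor of 3 counts. Il10 had 0, 3 and 2 counts in WT 0 h, 1, 2 and 1 in KO 0 h, 1, 6 and 6 in WT 2 h and 4, 6 and 5 in KO 2 h. Scaled for depth it was higher at 2 h in 6 of 6 animals, at up to 1.35 CPM, where KO 2 h replicate 1 had 4 counts. Il6 had 1, 1 and 3 counts in WT 0 h, 1, 2 and 4 in KO 0 h, 0, 2 and 2 in WT 2 h and 0, 0 and 10 in KO 2 h. The libraries without a count allow up to 0.399 CPM in WT 2 h replicate 1, 1.01 CPM in KO 2 h replicate 1 and 0.362 CPM in KO 2 h replicate 2. With no filter on low counts neither gene was called, and no change in Il10 or Il6 could be established at this depth.

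**Figure D3:**
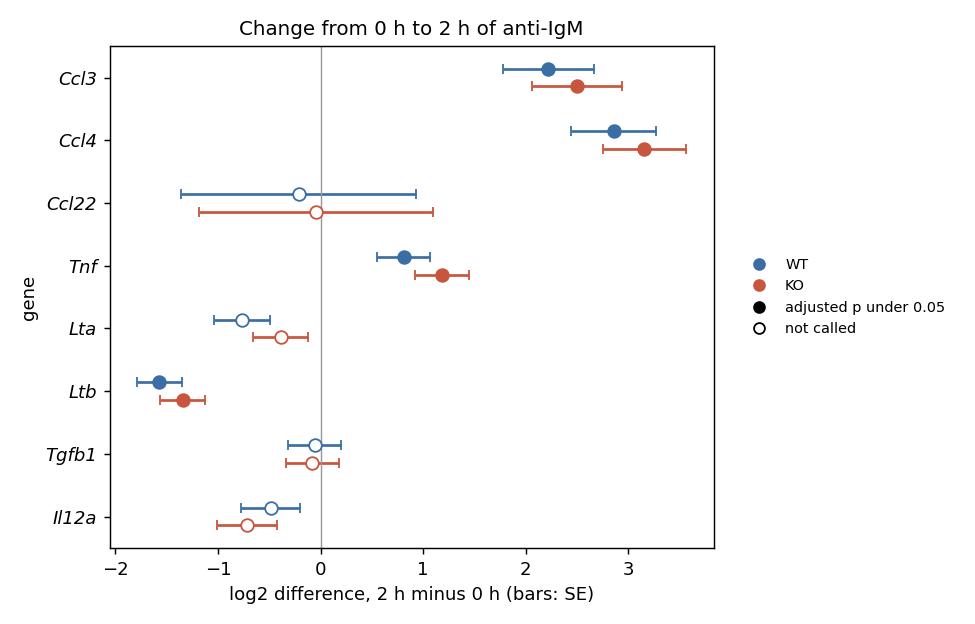
Log2 difference between 2 h and 0 h (horizontal axis) for the 8 tested genes in WT (blue) and KO (red), with bars of 1 SE from the edgeR fit; filled points have an adjusted p under 0.05. Ccl3, Ccl4 and Tnf are right of 0 and Ltb is left of 0 in both genotypes, and the bars of Ccl22 span over 1 log2 unit each way.

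KO was compared with WT to ask whether loss of Jmjd1c altered these genes before or after stimulation. No member was called at 0 h, where edgeR called 0% of all genes, the unadjusted p was under 0.05 for 0 of 8 members and 0.743% of all genes, and DESeq2 called 0 of 8 members and 0.00817% of all genes. No member was called at 2 h either, where edgeR called 0% of all genes and DESeq2 0 of 8 members and 0.0163% of all genes. At 2 h an unadjusted p under 0.05 was reached by 1 of 8 members, Ccl4, and by 5.23% of all genes. For the difference between the KO and WT responses, edgeR and DESeq2 each called 0 of 8 members and 0% of all genes, with an unadjusted p under 0.05 in 0 of 8 members and 0.319% of all genes. At 0 h and for the responses these shares lay well below the 0.05 that the threshold allows when no gene differs, so the edgeR tests were conservative there. Jmjd1c itself was not called at either time. The lack of a call therefore does not show that a member was unaffected.

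Ccl4 was the member with the smallest p. In KO 2 h it was at 58.5, 73.3 and 40.0 CPM against 21.3, 44.3 and 26.2 CPM in WT 2 h, so the lowest KO library lay below the highest WT library. The log2 difference was 0.91 ± 0.37 (SE, adjusted p = 0.887, edgeR), and over 22 alternative settings it lay between 0.68 and 1.26 with adjusted p from 0.446 to 0.9999. Within batches 1 to 3 KO exceeded WT by 1.46, 0.73 and 0.61 on the log2 scale. At 0 h the difference was 0.61 ± 0.41 (adjusted p = 0.9999), with within-batch values of 1.16, 0.57 and 0.41. The responses of KO and WT differed by 0.30 ± 0.56 (adjusted p = 0.99995).

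Other members at 2 h had smaller differences. Ccl3 differed by 0.69 ± 0.41 (SE), Lta by 0.41 ± 0.27, Ltb by 0.26 ± 0.22 and Tnf by 0.26 ± 0.26, each with adjusted p = 0.887. Lta was the 1 tested member whose KO 2 h libraries (9.47, 8.33 and 8.23 CPM) all lay above its WT 2 h libraries (6.39, 6.63 and 6.43 CPM). Such a gap was seen upwards in 4.62% and downwards in 3.59% of all genes tested at 2 h, and at 0 h in 2.95% and 2.90%, with 0 of 8 members in either direction. KO was above WT in all 3 batches for 4 of 8 members at 2 h (Ccl3, Ccl4, Tnf and Lta), against 16.5% of all genes, and for 2 of 8 at 0 h (Ccl4 and Il12a), against 14.5%. It was below WT in all 3 batches for 0 of 8 members at either time, against 16.6% of all genes at 2 h and 14.8% at 0 h. Ltb (above in 2 of 3 batches), Ccl22 (0.36 ± 1.16), Il12a (0.02 ± 0.29) and Tgfb1 (-0.08 ± 0.26) had no such pattern at 2 h. The members were not independent of each other. Ccl3, Ccl4 and Tnf followed each other over the 12 libraries (Pearson r = 0.926 to 0.965), while Lta ran opposite to them (r = -0.667 to -0.655). The 4 of 8 therefore cannot be read as 4 separate results.

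**Figure D4:**
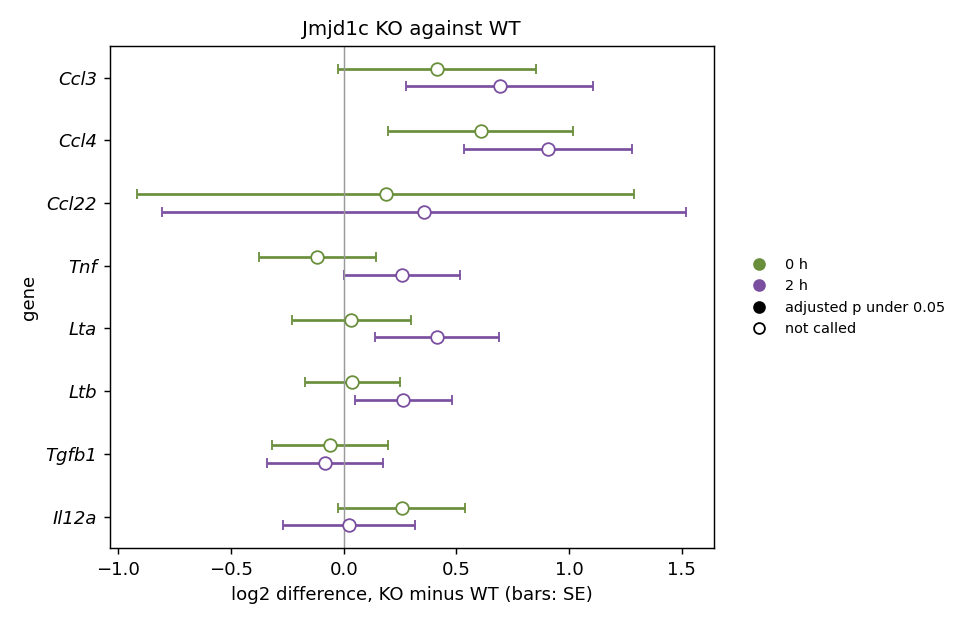
Log2 difference between KO and WT (horizontal axis) for the 8 tested genes at 0 h (green) and 2 h (purple), with bars of 1 SE from the edgeR fit; open points have an adjusted p of at least 0.05. All points are open, and Ccl4 at 2 h is farthest from 0, at 0.91.

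Receptors of these signals were counted next. Of 15 receptor genes 14 were tested, of which 0 were called higher and 1 lower in WT, and 0 higher and 2 lower in KO. The median log2 difference was 0.32 in WT and 0.23 in KO, against 0.01 and 0.04 over all genes tested. For this and the following lists, the shares called over all genes were 10.7% higher and 9.06% lower in WT. In KO they were 14.1% higher and 13.0% lower. Il10ra, the ligand-binding chain for interleukin 10, fell from 251 ± 10.5 to 72.7 ± 15.6 CPM in WT (-1.78, adjusted p = 2.15e-04) and from 283 ± 38.2 to 78.3 ± 17.3 CPM in KO (-1.84, adjusted p = 1.20e-04). Il6ra, the interleukin 6 receptor chain, was at 41.2 ± 2.97 and 28.1 ± 4.34 CPM in WT (-0.55, adjusted p = 0.0636) and fell in KO from 47.1 ± 10.7 to 25.8 ± 5.07 CPM (-0.84, adjusted p = 0.00753).

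Lrrc32 and Nrros, whose products hold latent TGF-beta at the cell surface, rose, while Tgfb1 was not called. Of 12 partner and processing genes 7 were tested, with 3 called higher and 0 lower in WT, and 2 higher and 0 lower in KO, and a median of 0.86 in WT and 0.65 in KO. The WT median was the value of Ltbp3, which was not called in WT (adjusted p = 0.629) or in KO (2.44, adjusted p = 0.111). Ltbp3 was at 9.03 ± 6.70 CPM in WT 2 h and 25.4 ± 33.0 CPM in KO 2 h. The KO median was the value of Itgav. Lrrc32, which encodes GARP, rose from 3.23 ± 0.662 to 25.3 ± 12.1 CPM in WT (2.97, adjusted p = 0.00232) and from 2.98 ± 0.180 to 21.7 ± 17.1 CPM in KO (2.88, adjusted p = 0.00194). Nrros rose by 1.15 in WT (adjusted p = 2.80e-04) and 1.08 in KO (adjusted p = 2.66e-04). Itgav, the integrin alpha V chain, rose by 1.02 in WT (adjusted p = 0.0153) and differed by 0.65 in KO (adjusted p = 0.0770). Furin, a processing protease, differed by -0.53 in WT and -0.28 in KO, and Adam17, which sheds TNF, by -0.09 and -0.20, none of them called. Ebi3, whose product pairs with p35 in interleukin 35 and which was named for that pairing after its values were seen, was at 4.03 ± 1.06 CPM in WT 0 h and 3.94 ± 1.12 CPM in WT 2 h (-0.05, adjusted p = 0.938).

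Among 43 other cytokine and chemokine genes 23 were tested. Of those tested, 2 were called higher and 2 lower in WT, and 1 higher and 2 lower in KO. The median was 0.01 in WT and 0.39 in KO. Both medians were the values of Osm, which was not called in WT (adjusted p = 0.994) or in KO (adjusted p = 0.463). Osm was at 7.80 ± 4.52 CPM in KO 2 h. In that group the SD exceeded the mean for Tnfsf10 (8.03 ± 8.57 CPM) and Tnfsf13 (2.47 ± 3.16 CPM), neither of them called. The KO median therefore does not show a general rise of these genes. Il16, encoding a T cell attractant, fell from 412 ± 48.6 to 183 ± 43.2 CPM in WT (-1.17, adjusted p = 0.00465) and by 1.37 in KO (adjusted p = 0.00147). Flt3l, a growth factor for dendritic cells, fell by 0.91 in WT (adjusted p = 0.0214) and 0.78 in KO (adjusted p = 0.0354). Mif, macrophage migration inhibitory factor, rose from 26.6 ± 3.15 to 56.9 ± 14.4 CPM in WT (1.10, adjusted p = 0.00639) and by 1.59 in KO (adjusted p = 6.68e-04). Il18, a cytokine of the interleukin 1 family, rose by 1.57 in WT (adjusted p = 0.04997) and differed by 1.38 in KO (adjusted p = 0.0584). The remaining 20 were not tested because of low counts.

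Transcription factors known to act on cytokine genes were all tested, 20 of 20. In WT 6 were called higher and 2 lower, and in KO 6 higher and 3 lower, with medians of 0.63 and 0.78. Egr2 rose by 3.05 in WT and 2.95 in KO, Egr3 by 2.58 and 2.23, Irf4 by 2.40 and 2.09, Egr1 by 2.06 and 1.87 and Batf by 1.40 and 1.37, while Jund fell by 1.11 and 0.86. The other calls, named after their values were seen, were Nfatc1, higher by 1.33 in WT and 1.01 in KO, Nfatc2, which fell by 0.98 and 0.68, and Nfatc3, which fell by 0.90 in KO. Of 8 genes for proteins that bind or degrade cytokine mRNAs, all were tested, with 1 called higher and 2 lower in WT and 0 higher and 2 lower in KO, and medians of 0.05 and -0.21. Zfp36l1 rose by 0.68 in WT (adjusted p = 0.0257) and differed by 0.49 in KO (adjusted p = 0.0788), Zfp36l2 fell by 0.74 in WT (adjusted p = 0.0395) and differed by -0.54 in KO (adjusted p = 0.103), and Tnrc6b fell by 0.77 and 1.05 (adjusted p = 0.00775 and 0.00107). Rc3h2 differed by -0.26 in WT (adjusted p = 0.344) and fell by 0.58 in KO (adjusted p = 0.0286). In all 5 lists, 0 genes were called by edgeR between KO and WT at either time, and an unadjusted p under 0.05 was reached by 0 at 0 h and 2 at 2 h. Those 2 were 1 of 14 receptor genes and 1 of 8 genes for proteins that bind or degrade cytokine mRNAs. Over all genes tested the share was 0.743% at 0 h and 5.23% at 2 h.

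The genes whose log2 CPM followed each member most closely over the 12 libraries were listed as a description. The libraries share animals in pairs and fall into a 0 h and a 2 h set, so a gene that changes with time will track any other that does. Ltb was followed by Coro1a (Pearson r = 0.996), Ppp1ca (r = 0.989) and Glipr2 (r = 0.988), Ccl4 by Rpf2 (r = 0.979), Tomm5 (r = 0.970) and Tmem70 (r = 0.968), and Ccl3 by Kdelr2 (r = 0.970), Phf23 (r = 0.969) and Ncbp2 (r = 0.968). Tnf was followed by the readthrough gene Rbm14-rbm4 (r = 0.968) and by Gemin4 (r = 0.956), and Il12a by Snapin (r = 0.990). For Lta and Tgfb1 the closest were Baz1a (r = 0.909) and Fzr1 (r = 0.948).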

How the data were processed

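Messenger RNA counts were analysed for 12 libraries in 4 groups of 3. The submitters' processing notes name STAR and mm10. For the counting tool, annotation and strand setting the sources used here give nothing. The values deposited were raw counts per gene symbol, 1 library a file, and they were not normalized.

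From these counts genes were filtered with filterByExpr (12242 of 24046 kept), scaled with TMM, and fitted with edgeR 4.0.16 (R 4.3.3), a quasi-likelihood model with 1 mean per group over all 12 libraries. P values are two-sided, adjusted with Benjamini-Hochberg over all genes tested, and called under 0.05. SE was derived from the F statistic. DESeq2 1.42.0 was an alternative. The fit was tested on simulated data with changes between the times. The members, lists and the rule for named genes were chosen with earlier results of these data known. All members were named, and up to 6 genes of each list by smallest p in WT; some items are not reported here.

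The number pairs samples, since both times of an animal carry it and the labels call it a batch. Correlations of deviations from group means were -0.40 to 0.59 for 6 same-animal pairs, -0.40 to 0.86 for 12 pairs of other animals with 1 number (0.27 to 0.86 for the 6 of these within a time) and -0.76 to 0.62 for different numbers. Libraries of 1 group differed beyond sampling noise (chi-square per degree of freedom at least 13.7). Floors cover counting error only, as reads are not independent molecules.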

Additional observations from a re-analysis of the deposited data

How the results depend on the processing

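Of 8 tested members, Ccl3, Ccl4 and Ltb kept their calls and directions from 0 h to 2 h in both genotypes in all 23 alternative settings, including those without both 2 h libraries of batch 1, and Tnf did in KO. No result of a member was called in the opposite direction in any setting. With the batch as a replicate block, calls of Lta in WT (adjusted p = 0.0406) and Il12a in KO (adjusted p = 0.0165) were added, the animal block added Il12a in KO (adjusted p = 0.0285), and neither block changed another member's call. With no filter on low counts all 10 members were tested, Il6 and Il10 were not called, and Tnf was not called in WT (adjusted p = 0.0845), nor when only the WT groups were fitted (adjusted p = 0.0607). The cause of these changes was not tested.

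Over all genes, 2419 were called in WT and 3316 in KO between the times. Leaving out 1 library gave 1349 to 3624 in WT. Fitting only the KO groups gave 1626 in KO. The batch block without both 2 h libraries of batch 1, added after seeing the data, gave 5187 in WT, 5492 in KO, and between the genotypes 5 at 0 h and 2 at 2 h. DESeq2 called 1 gene between the genotypes at 0 h and 2 at 2 h, and with the batch block, also added later, 4 and 17; none was a member. Low counts limit Il6 and Il10, and Ccl22 had both low counts and a wide spread between replicates.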
